A study of Homo sapiens with 21 samples.

Results

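Transcripts of 10 autophagy and lysosome stress genes were followed in hTERT-HPNE, a nontransformed pancreatic cell line immortalized with telomerase. The genes are SQSTM1 and NBR1 (cargo receptors), MAP1LC3B and GABARAPL1 (ATG8 family), ULK1 (initiation kinase), ATG2A (lipid transfer), WIPI1 (phosphoinositide binding), TFEB (MiT/TFE transcription factor), and DRAM1 and TP53INP2 (a p53-induced lysosomal membrane protein and an ATG8-binding autophagy regulator). They were taken by their symbols from the table of the whole series, and all 10 were found among its 23368 genes. Each had 1 row and varied between libraries, so all 10 are also among the 19694 genes tested. The study set oxidative stress from H2O2 beside DNA double-strand breaks from neocarzinostatin (NCS), a radiomimetic drug, to learn how cells respond to each.

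Autophagy delivers cytoplasmic material to the lysosome for degradation. An initiation kinase marks the site where a membrane forms, lipid transfer and phosphoinositide-binding proteins extend it, ubiquitin-like proteins of the ATG8 family are attached to it, and cargo receptors bind both the cargo and the ATG8 proteins. The lysosomal part of the pathway is controlled by the MiT/TFE transcription factors, and several genes of the pathway are known p53 targets, which is why the pathway is often followed in cells under oxidative or genotoxic stress.

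The 21 libraries make 7 groups with 3 biological replicates each. One group is untreated and was collected at 0 h, and the other 6 were collected 4, 8 and 24 h after addition of either 300 μM H2O2 or 400 ng/ml NCS. All treated cells received fresh medium together with the stress, and untreated cells were collected only at 0 h, so against untreated cells the stress and the hours in fresh medium cannot be told apart. H2O2 and NCS at the same hour share that interval. The mRNA libraries were stranded and sequenced as read pairs. The deposited values are rLog values on a log2 scale, in which a difference of 1 is a doubling. They are normalized for library size and shrink differences, and since counts are absent the sequencing depth is unknown.

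The libraries had medians between 7.14 and 7.19. The library H2O2 8 h replicate 2 lay furthest from the rest of its group, at a mean Euclidean distance of 14.95 against 9.28 to 13.29 for the others, and results at 8 h in H2O2 were also computed without it. Without it the members passing were again 10 against untreated cells and 9 against NCS. SQSTM1, MAP1LC3B, GABARAPL1, ULK1, ATG2A and DRAM1 are given without it where they are described. Of the others, NBR1 was then at -0.09, WIPI1 at -0.12, TFEB at 0.37 and TP53INP2 at -0.33 on the log2 scale against untreated cells, all 4 passing. Against NCS at 8 h the 10 differences without it ran from -0.48 for TP53INP2 to 0.70 for MAP1LC3B, and each kept its direction and its side of the limit. Of the markers of pancreatic lineages, the duct keratin KRT19 averaged 0.60 and the acinar and islet genes PRSS1 and INS were listed at 0 in every library, against 12.03 for the progenitor filament gene NES and 17.03 for the mesenchymal filament gene VIM. The median of all tested genes was 7.17. Duct, acinar and islet genes were therefore at the low end of the table, apart from the duct transcription factor gene SOX9 at 6.07.

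A single limma model held the 7 groups, p-values were adjusted by Benjamini-Hochberg over the 19694 genes, and a gene passed at an adjusted p under 0.05. No member passed both that limit and an absolute log2 difference of 1, the limits of the study's methods, in any of the 12 comparisons, in which between 0.0152% and 1.61% of all genes did. The study applied those limits to DESeq2 fold changes from counts. Here they were applied to differences of shrunken rLog values, so the members' status by the study's own calls is not given. With 3 libraries against 3, a two-sided exact permutation test of a single gene cannot give a p below 0.1.

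The promoters of members that moved together or apart are shown first. Sequences of the 10 genes came from RefSeq promoters of build GRCh38.p14, which give 16 start sites for them, with 250 bases before and 50 after each start. Their GC content ran from 51.7% (GABARAPL1) to 79.7% (WIPI1). Each window was searched on both strands for the CLEAR core of TFEB-type factors (TCACGTGA), the core of the antioxidant response element (TGACNNNGC), the AP-1 element (TGANTCA), the amino acid response core (TGATGNAA) and the cyclic AMP response element or CRE (TGACGTCA). The CRE was added after the sequences were seen, and the antioxidant and AP-1 letters can overlap in one stretch. The stretches before the start site that held a match, given 5′ to 3′ on the strand of the gene with the match in capitals, were these 3, from chr16:87392250-87392335 (plus strand, antioxidant core), chr12:10212807-10212876 (plus strand, CRE) and chr20:34704243-34704330 (plus strand, CRE).
MAP1LC3B: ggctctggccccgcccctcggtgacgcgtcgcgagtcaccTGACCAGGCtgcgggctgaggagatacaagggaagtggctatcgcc
GABARAPL1: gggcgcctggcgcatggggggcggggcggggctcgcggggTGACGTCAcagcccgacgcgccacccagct
TP53INP2: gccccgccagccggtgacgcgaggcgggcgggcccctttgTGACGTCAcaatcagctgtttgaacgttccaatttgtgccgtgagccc

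Of all 35116 promoters, 1.85% held the CRE letters, 13.3% the antioxidant core, 7.71% the AP-1 element, 3.62% the amino acid response core and 0.98% the CLEAR core. By gene, 2.25% of 27305 genes held the CRE letters in a window and 16.1% the antioxidant core. The CRE letters stood in front of 2 of the 10 members, GABARAPL1 and TP53INP2, and the antioxidant core in front of 1, MAP1LC3B. As the CRE was chosen after the sequences were seen, its count among the members cannot be judged against these shares. The CLEAR, AP-1 and amino acid response letters were not in the windows of the 10 genes, which says nothing of sites elsewhere. As the values below show, GABARAPL1 and TP53INP2 went in opposite directions under H2O2 at 8 and 24 h, where GABARAPL1 and MAP1LC3B both rose. In NCS GABARAPL1 and TP53INP2 both rose, by 0.16 and 0.14 at 8 h and by 0.62 and 0.36 at 24 h. Whether the letters bear on these courses was not tested. A match of letters is a description and was not tested as a binding site.

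Cargo receptors link ubiquitinated proteins and damaged organelles to the growing membrane. SQSTM1, which encodes the receptor p62, rose at every time point under both stresses, and more under H2O2. In untreated cells its rLog values were 12.60, 12.63 and 12.67. After H2O2 they were 13.05, 13.09 and 13.09 (4 h), 13.40, 13.21 and 13.41 (8 h) and 13.47, 13.53 and 13.52 (24 h). After NCS they were 12.85, 12.82 and 12.79 (4 h), 12.72, 12.75 and 12.77 (8 h) and 12.93, 12.98 and 12.96 (24 h). In bulk RNA, a change within cells and a change in which cells remain cannot be told apart. No 2 neighbours in the order of the 7 groups overlapped, from H2O2 24 h at the top through H2O2 8 h, H2O2 4 h, NCS 24 h, NCS 4 h and NCS 8 h down to untreated.

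The log2 rise of SQSTM1 in H2O2 was 0.44, 0.71 and 0.87 at 4, 8 and 24 h (SE 0.04 each), the last a 1.83-fold difference in rLog terms and the largest of the 10 genes against untreated cells (adjusted p = 1.18e-12). Without H2O2 8 h replicate 2, the lowest of its group, the 8 h rise was 0.77. In NCS the rises were 0.19, 0.11 and 0.32 (adjusted p = 0.00172, 0.0436 and 1.54e-06). The 8 h rise in NCS was the weakest of these. It missed the limit without untreated replicate 1 or 2 or without NCS 8 h replicate 2 or 3, with adjusted p from 0.0957 to 0.163. H2O2 exceeded NCS by 0.25, 0.60 and 0.55 at the 3 times (adjusted p = 2.44e-05, 2.67e-09 and 7.1e-09).

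NBR1, the other cargo receptor among the members, had a different course that was shared by both stresses. Its untreated values were 11.93, 11.89 and 11.86. After H2O2 they were 11.77, 11.78 and 11.78 (4 h), 11.82, 11.83 and 11.79 (8 h) and 12.24, 12.23 and 12.28 (24 h). After NCS they were 11.79, 11.73 and 11.77 (4 h), 11.93, 11.88 and 11.93 (8 h) and 12.27, 12.23 and 12.28 (24 h). All libraries at 4 h lay below all untreated libraries, and all libraries at 24 h lay above them.

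At 4 h NBR1 fell by 0.12 under H2O2 and by 0.14 under NCS (adjusted p = 0.00034 and 0.000304) and rose by 0.35 and 0.36 at 24 h (SE 0.02 each, adjusted p = 3.09e-10 and 2.27e-10). The fall in H2O2 at 8 h was 0.08 (adjusted p = 0.00914), and it missed the limit without untreated replicate 1 (adjusted p = 0.0588). Between the stresses the difference was -0.01 at 24 h with a 95% interval of -0.06 to 0.04, and the change from 4 to 24 h did not pass as different between them (adjusted p = 0.531). At 8 h NBR1 was lower in H2O2 than in NCS by -0.10 (adjusted p = 0.00261). The 2 cargo receptors thus had an interaction of stress and time that passed for SQSTM1 (0.30, SE 0.05, adjusted p = 0.000232) and did not pass for NBR1.

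**Figure D1:**
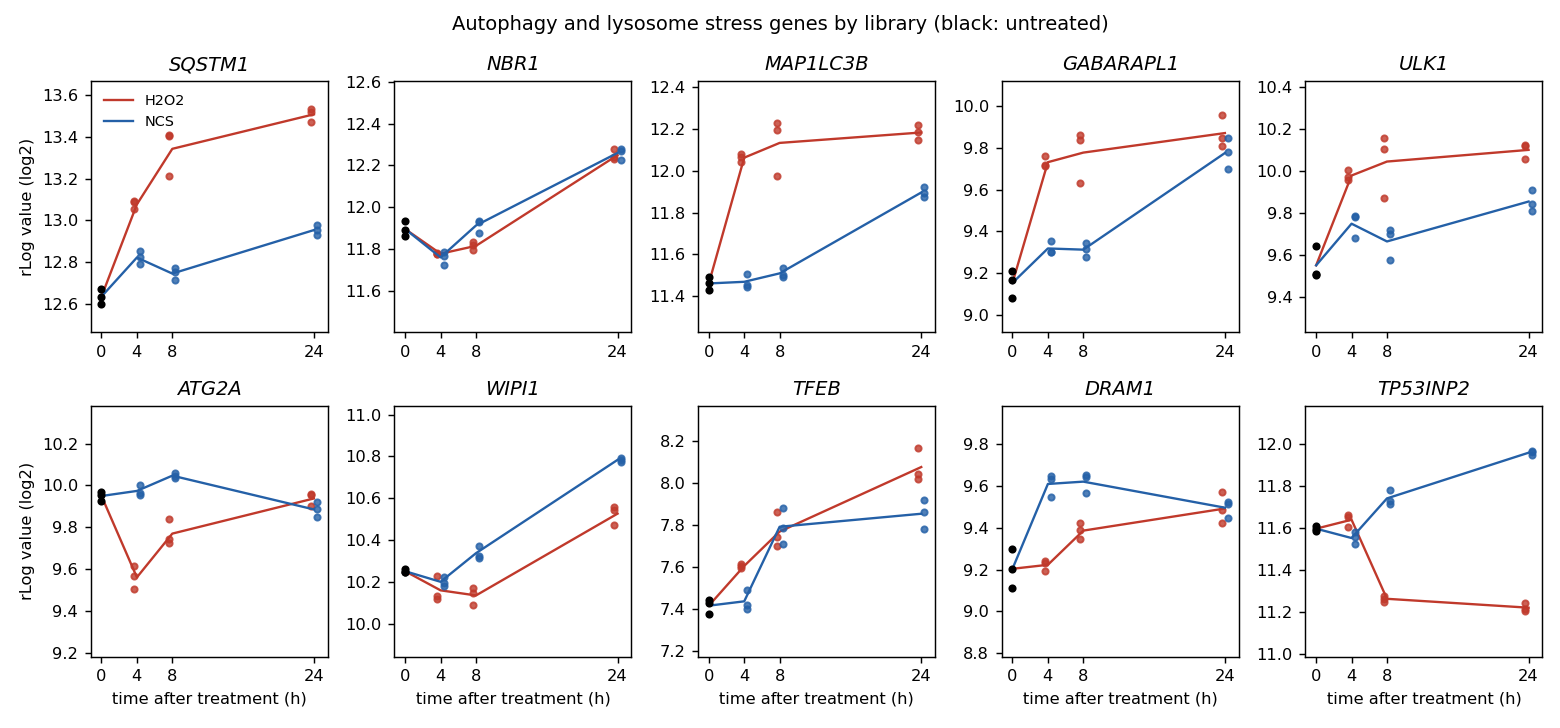
rLog values (log2) of the 10 genes in the 21 libraries against hours after treatment; points are libraries, lines join group means, black points are untreated cells, and every panel spans 1.2 log2 units. SQSTM1, MAP1LC3B, GABARAPL1 and ULK1 stood higher in H2O2 than in NCS at 4 and 8 h, NBR1 stood within 0.02 between the stresses at 4 and 24 h and lower in H2O2 at 8 h, and TP53INP2 reached 11.97 in NCS and 11.20 in H2O2 at 24 h.

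The ATG8-family proteins coat the autophagosome and anchor the receptors. MAP1LC3B, which encodes the marker protein LC3B, was higher in H2O2 from 4 h on and rose in NCS only by 24 h. The untreated values were 11.49, 11.43 and 11.46. After H2O2 they were 12.04, 12.08 and 12.07 (4 h), 12.20, 11.98 and 12.23 (8 h) and 12.15, 12.19 and 12.22 (24 h). After NCS they were 11.50, 11.45 and 11.46 (4 h), 11.49, 11.50 and 11.53 (8 h) and 11.89, 11.87 and 11.92 (24 h). The 3 H2O2 groups overlapped with their neighbours in order, and NCS at 4 h overlapped with untreated cells.

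In H2O2, MAP1LC3B rose by 0.60, 0.67 and 0.72 (SE 0.04 each, adjusted p = 2.97e-09, 1.51e-09 and 1.17e-10), and by 0.75 at 8 h without H2O2 8 h replicate 2. In NCS its difference was 0.01 at 4 h (95% interval -0.08 to 0.10, adjusted p = 0.975) and 0.05 at 8 h (-0.04 to 0.14, adjusted p = 0.548), and it rose by 0.43 at 24 h (adjusted p = 1.57e-07). H2O2 exceeded NCS by 0.59 and 0.62 at 4 and 8 h and by 0.29 at 24 h (adjusted p = 8.44e-05). The difference between the stresses at 24 h was thus smaller than at 4 h by 0.31 (SE 0.06, adjusted p = 0.000644). MAP1LC3B2, a near-identical copy of this gene with its own row, rose as well, by 0.55 in H2O2 and 0.43 in NCS at 24 h. How the authors' counting divided reads between the copies is not given in the sources used here, so the values of both are uncertain to that extent.

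GABARAPL1, from the GABARAP branch of the family, followed MAP1LC3B in H2O2 and caught up in NCS. Untreated libraries read 9.21, 9.08 and 9.17. After H2O2 the values were 9.76, 9.72 and 9.71 (4 h), 9.86, 9.63 and 9.84 (8 h) and 9.81, 9.85 and 9.95 (24 h). After NCS they were 9.36, 9.30 and 9.30 (4 h), 9.28, 9.32 and 9.34 (8 h) and 9.84, 9.78 and 9.70 (24 h). Every treated library lay above every untreated one, and at 24 h the 2 stresses overlapped.

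GABARAPL1 rose by 0.58, 0.62 and 0.72 in H2O2 (SE 0.05 each, adjusted p = 7.11e-08, 3.98e-08 and 2.22e-09), with 0.70 at 8 h when H2O2 8 h replicate 2 was left out. In NCS it rose by 0.62 at 24 h (adjusted p = 1.85e-08), the largest of the 10 genes in that comparison, after 0.16 at both 4 and 8 h (adjusted p = 0.0403 and 0.037). Those 2 early calls were weak. At 4 h the call was lost without any 1 of NCS 4 h replicates 1, 2 or 3 or untreated replicate 2 or 3 (adjusted p from 0.0701 to 0.172), and at 8 h without NCS 8 h replicate 2 or 3 or untreated replicate 2 or 3 (0.0649 to 0.167). H2O2 exceeded NCS by 0.41 and 0.46 at 4 and 8 h (adjusted p = 4.49e-06 and 2.14e-06). At 24 h the difference was 0.10 with a 95% interval of -0.02 to 0.21 (adjusted p = 0.249), which leaves room for a difference in either direction.

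ULK1, the kinase that starts autophagosome formation, resembled SQSTM1 with a smaller range. Its untreated values were 9.50, 9.64 and 9.51. In H2O2 it read 10.01, 9.96 and 9.97 (4 h), 10.16, 9.87 and 10.11 (8 h) and 10.12, 10.12 and 10.06 (24 h). In NCS it read 9.79, 9.78 and 9.68 (4 h), 9.72, 9.70 and 9.57 (8 h) and 9.91, 9.84 and 9.81 (24 h). All H2O2 libraries were above all untreated ones, while NCS at 8 h overlapped with untreated cells.

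The rise of ULK1 in H2O2 was 0.43, 0.50 and 0.55 (SE 0.06 each, adjusted p = 1.02e-05, 2.32e-06 and 3.78e-07), and 0.58 at 8 h without H2O2 8 h replicate 2. In NCS it rose by 0.30 at 24 h (adjusted p = 0.000386). The NCS value at 4 h was 0.20 (adjusted p = 0.0267), and it missed the limit without NCS 4 h replicate 1 or 2 or untreated replicate 1 or 3 (adjusted p from 0.0934 to 0.111). At 8 h it was 0.11 (95% interval -0.01 to 0.24, adjusted p = 0.207). H2O2 exceeded NCS at all 3 times, by 0.23, 0.38 and 0.25 (adjusted p = 0.00408, 5.93e-05 and 0.00527). ULK1 was also the member whose replicates spread most, with an SD within groups of 0.08.

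The 2 genes that act on the growing membrane fell early in H2O2, as NBR1 did. ATG2A, whose product moves lipids into the membrane, read 9.95, 9.97 and 9.93 in untreated cells. After H2O2 it read 9.61, 9.57 and 9.50 (4 h), 9.74, 9.73 and 9.84 (8 h) and 9.96, 9.95 and 9.90 (24 h). After NCS it read 9.96, 10.00 and 9.95 (4 h), 10.03, 10.05 and 10.06 (8 h) and 9.92, 9.89 and 9.85 (24 h). Its H2O2 libraries at 4 and 8 h were the lowest of all 21, and by 24 h they overlapped with untreated cells.

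ATG2A fell by 0.39 at 4 h and by 0.18 at 8 h in H2O2 (SE 0.03 each, adjusted p = 1.53e-08 and 0.000167), a 4 h level of 0.764 times that of untreated cells, and the 8 h value was -0.16 without H2O2 8 h replicate 2. At 24 h the difference was -0.01 (95% interval -0.08 to 0.06). In NCS the only passing value against untreated cells was 0.10 at 8 h (adjusted p = 0.0329). That call was lost without any 1 of NCS 8 h replicates 1, 2 or 3 or untreated replicate 1 or 3 (adjusted p from 0.055 to 0.111) and with library medians aligned (0.14). H2O2 was below NCS by -0.41 at 4 h and -0.28 at 8 h (adjusted p = 6.88e-09 and 2.2e-06), and by 24 h the difference was 0.05 (adjusted p = 0.301). The change from 4 to 24 h differed between the stresses by 0.47 (SE 0.05, adjusted p = 2.62e-07).

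WIPI1, which reads the lipid mark at the site of membrane growth, rose late and more in NCS. It read 10.25, 10.26 and 10.25 in untreated cells. After H2O2 it read 10.12, 10.13 and 10.23 (4 h), 10.17, 10.15 and 10.09 (8 h) and 10.56, 10.55 and 10.47 (24 h). After NCS it read 10.18, 10.23 and 10.19 (4 h), 10.32, 10.32 and 10.37 (8 h) and 10.77, 10.79 and 10.78 (24 h). The 24 h groups were the top 2 of the 7 and did not overlap with each other.

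WIPI1 rose by 0.53 in NCS and by 0.28 in H2O2 at 24 h (SE 0.03 each, adjusted p = 3.83e-11 and 3.57e-07), so that H2O2 was below NCS by -0.26 (adjusted p = 3.8e-06). At 8 h H2O2 was below NCS by -0.20 (adjusted p = 3.12e-05). In H2O2 it fell by 0.12 at 8 h and by 0.09 at 4 h, with adjusted p of 0.00426 and 0.0171. The 4 h fall was lost without H2O2 4 h replicate 1 or 2 or untreated replicate 2 (adjusted p from 0.0515 to 0.0894) and under quantile normalization (0.178). The NCS rise of 0.09 at 8 h (adjusted p = 0.0424) was lost without any single library of either group (adjusted p from 0.0519 to 0.177).

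TFEB, the transcription factor of lysosomal and autophagy genes, rose with time in both stresses. It read 7.37, 7.44 and 7.43 in untreated cells. After H2O2 it read 7.61, 7.61 and 7.60 (4 h), 7.70, 7.75 and 7.86 (8 h) and 8.17, 8.04 and 8.02 (24 h). After NCS it read 7.49, 7.40 and 7.42 (4 h), 7.79, 7.88 and 7.71 (8 h) and 7.92, 7.86 and 7.78 (24 h). NCS at 4 h overlapped with untreated cells, and every other treated group lay above them.

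The TFEB rises in H2O2 were 0.19, 0.35 and 0.66 (SE 0.05 each, adjusted p = 0.00594, 2.33e-05 and 4.93e-09). In NCS the values were 0.02 at 4 h (95% interval -0.09 to 0.13, adjusted p = 0.959), then rises of 0.38 and 0.44 (adjusted p = 2.12e-05 and 1.37e-06). The excess of H2O2 over NCS was 0.22 at 24 h (adjusted p = 0.00407). It was 0.17 at 4 h (adjusted p = 0.0131, and 0.0527 without NCS 4 h replicate 2), and -0.02 at 8 h (95% interval -0.13 to 0.09). Of the other MiT/TFE genes, MITF fell in both stresses at 24 h, by 0.19 in H2O2 and 0.28 in NCS, and TFE3 and TFEC did not pass at 24 h. A rise within this family at 24 h was thus seen for TFEB alone of the 4 genes. TFEC had a mean of only 1.83, where the median of all tested genes was 7.17, so its not passing says little.

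**Figure D2:**
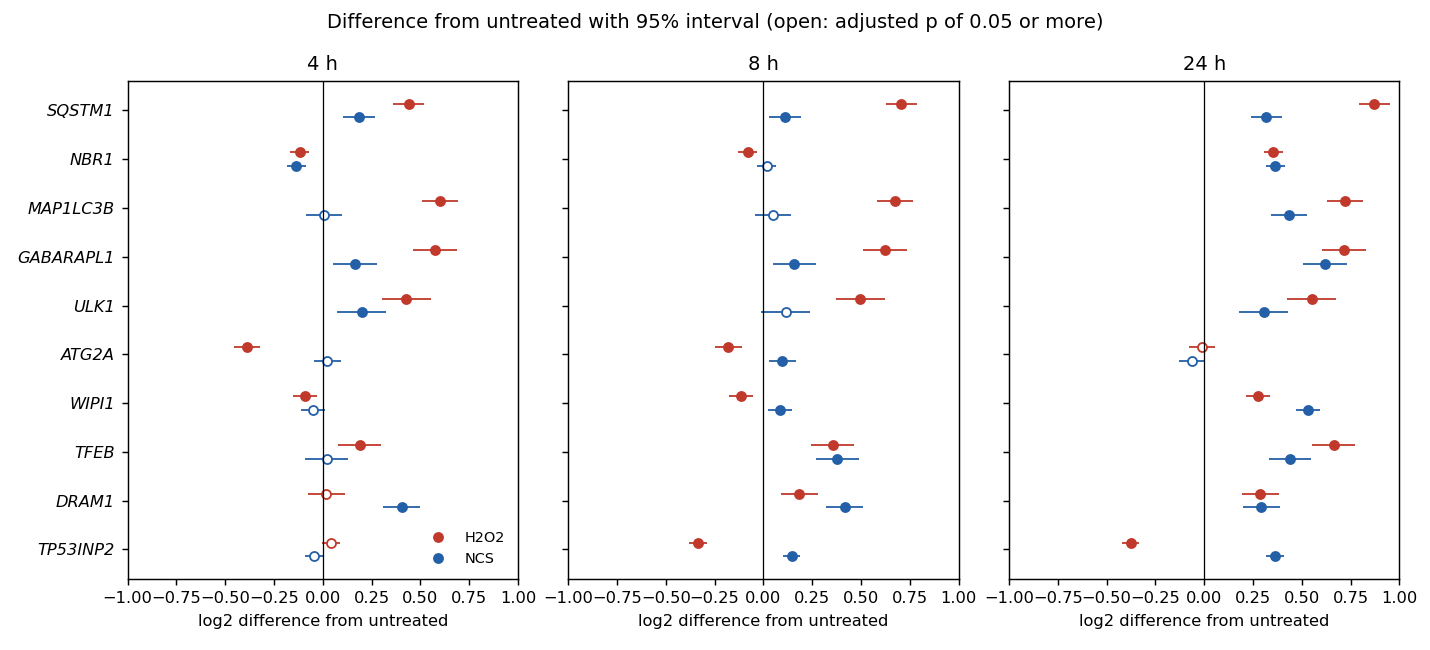
Log2 differences of the 10 genes from untreated cells at 4, 8 and 24 h, with 95% intervals from limma; filled points passed an adjusted p of 0.05. At 24 h the NCS values of 9 genes lay above 0 and passed, ATG2A being the exception, while in H2O2 TP53INP2 lay at -0.38.

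The members linked to p53 by name or regulation went apart from each other. DRAM1, a p53-induced gene for a lysosomal membrane protein, rose first in NCS. Its untreated values were 9.30, 9.11 and 9.20. After NCS they were 9.63, 9.55 and 9.65 (4 h), 9.57, 9.64 and 9.65 (8 h) and 9.52, 9.45 and 9.52 (24 h). After H2O2 they were 9.19, 9.23 and 9.24 (4 h), 9.42, 9.35 and 9.39 (8 h) and 9.42, 9.48 and 9.57 (24 h). NCS libraries at 4 h were all above the H2O2 libraries of that time, and at 24 h the stresses overlapped.

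In NCS, DRAM1 rose by 0.41, 0.42 and 0.29 (SE 0.04 each, adjusted p = 2.83e-06, 1.16e-06 and 3.08e-05). In H2O2 the difference was 0.02 at 4 h (95% interval -0.08 to 0.11, adjusted p = 0.788), with rises of 0.18 at 8 h and 0.29 at 24 h (adjusted p = 0.00317 and 3.29e-05), and 0.20 at 8 h without H2O2 8 h replicate 2. H2O2 was below NCS by -0.39 and -0.23 at 4 and 8 h (adjusted p = 1.29e-06 and 0.000449). At 24 h the interval of the difference ran from -0.10 to 0.09. The change from 4 to 24 h differed between the stresses by 0.38 (SE 0.06, adjusted p = 0.000106).

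TP53INP2, whose product shuttles from the nucleus to autophagosomes and binds ATG8 proteins, was the only one of the 10 that passed in opposite directions under the 2 stresses at 24 h. It read 11.59, 11.61 and 11.59 in untreated cells. After H2O2 it read 11.65, 11.60 and 11.66 (4 h), 11.28, 11.26 and 11.25 (8 h) and 11.24, 11.20 and 11.22 (24 h). After NCS it read 11.52, 11.58 and 11.56 (4 h), 11.78, 11.71 and 11.73 (8 h) and 11.95, 11.96 and 11.97 (24 h). From 8 h on, all H2O2 libraries were below all untreated libraries and all NCS libraries were above them.

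TP53INP2 fell by 0.34 and 0.38 at 8 and 24 h in H2O2 (SE 0.02 each, adjusted p = 1.09e-09 and 3.69e-11), and rose by 0.14 and 0.36 in NCS (adjusted p = 3.83e-05 and 7.03e-11). At 24 h its level in H2O2 was 0.598 times that in NCS, a log2 difference of -0.74 (adjusted p = 1.95e-13), after -0.48 at 8 h and 0.09 at 4 h (adjusted p = 5.78e-11 and 0.00234). The interaction of stress and time was -0.83 (SE 0.03, adjusted p = 1.89e-12), the largest of the 10 genes. ATG2A and WIPI1 also passed in opposite directions, at 8 h, with falls in H2O2 and the small NCS rises of 0.10 and 0.09 given above. Its relative TP53INP1, a p53 target with an ATG8-binding role of its own, rose in both stresses at 24 h, by 1.59 in H2O2 and 1.23 in NCS.

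**Figure D3:**
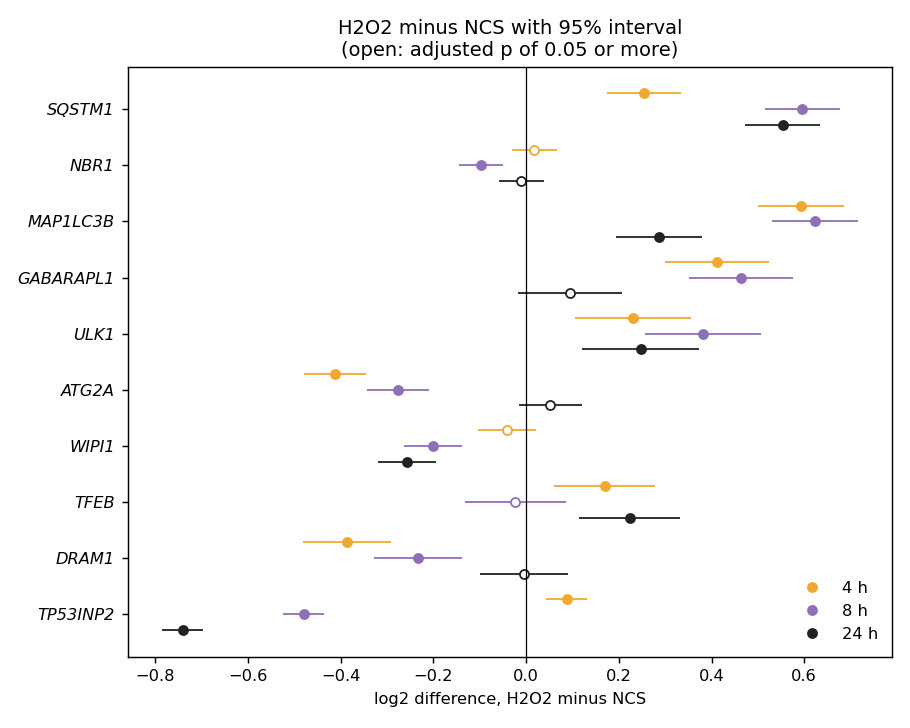
Log2 difference of H2O2 minus NCS for the 10 genes at 4, 8 and 24 h with 95% intervals; filled points passed an adjusted p of 0.05. SQSTM1, MAP1LC3B and ULK1 lay above 0 at all 3 times, DRAM1 and ATG2A moved from below 0 at 4 h to intervals that include 0 at 24 h, and TP53INP2 moved away from 0 to -0.74.

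Counted over the 10 genes, 8 passed in H2O2 at 4 h (5 higher, 3 lower) against 45.9% of all genes tested (26.2% higher, 19.7% lower), 10 at 8 h (6 higher, 4 lower) against 37.4% (18.8% and 18.6%), and 9 at 24 h (8 higher, 1 lower) against 40% (20.2% and 19.9%). In NCS, 5 passed at 4 h (4 higher, 1 lower) against 17.2% (7.47% and 9.72%) of all genes, 7 at 8 h (7 higher) against 23.9% (10.5% and 13.3%), and 9 at 24 h (9 higher) against 38% (19.6% and 18.4%). The members were chosen with earlier results of these data known, so these counts are a description and not a test. All 10 members had mean values above 7, and genes with higher values passed more often. Among the 10026 genes with a mean of at least 7, the shares passing were 57%, 59.2% and 64.3% in H2O2 and 30.1%, 41.1% and 62.9% in NCS, which is the closer background for these members. The NCS counts at 4 and 8 h changed with single libraries. The 4 h count was 3 without untreated replicate 3 or NCS 4 h replicate 1 or 2, and the 8 h count was 4 without untreated replicate 1, 2 or 3 and 3 without NCS 8 h replicate 2 or 3.

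In the upward direction the shares among genes with a mean of at least 7 were 21.6%, 26.8% and 30.3% in H2O2 and 12.6%, 17.3% and 31.1% in NCS. The median log2 difference of the 10 was 0.12, 0.27 and 0.45 in H2O2 and 0.02, 0.11 and 0.36 in NCS, where the median over all genes lay within 0.01 of 0 each time. Members with differences over 0.58 were MAP1LC3B in H2O2 at 4 h, SQSTM1, MAP1LC3B and GABARAPL1 at 8 h, and these and TFEB at 24 h, with GABARAPL1 in NCS at 24 h. All genes tested passed that limit in 2.91%, 2.44% and 4.56% of cases in H2O2 and in 3.97% in NCS at 24 h. For that limit the shares among genes with a mean of at least 7, the closer background, were not computed. Between H2O2 and NCS, 8 of the 10 passed at 4 h (6 higher in H2O2, 2 lower) against 44.4% (26.3% and 18%) of all genes, 9 at 8 h (4 higher, 5 lower) against 34.1% (18.7% and 15.4%), and 6 at 24 h (4 higher, 2 lower) against 21.9% (11% and 10.9%). The members that did not pass at 24 h were NBR1, GABARAPL1, ATG2A and DRAM1. Across time, 9 of the 10 changed from 4 to 24 h in H2O2 (8 higher, 1 lower) against 55.5% (23.1% and 32.4%) of all genes, 8 in NCS (7 higher, 1 lower) against 38.3% (19.5% and 18.8%), and the change differed between the stresses for 7 (3 higher, 4 lower) against 39.4% (16.6% and 22.7%). The rises of MAP1LC3B and GABARAPL1 from 4 to 24 h in H2O2 were lost when some single libraries were left out. Among genes with a mean of at least 7 the shares passing were 54%, 54.1% and 37.2% between the stresses at 4, 8 and 24 h, 70.9% from 4 to 24 h in H2O2, 63.4% in NCS, and 51.1% for the interaction.

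Over the 21 libraries, which include replicates of the same 7 groups, the members followed several courses. MAP1LC3B and GABARAPL1 had a Pearson r of 0.952, SQSTM1 and ULK1 0.927, SQSTM1 and MAP1LC3B 0.922, and NBR1 and WIPI1 0.922. SQSTM1 with NBR1, the other cargo receptor, had only 0.335. TP53INP2 ran against SQSTM1 at -0.69, ATG2A against MAP1LC3B at -0.60, and DRAM1 had 0.01 with SQSTM1. The points share the 7 group means and the rLog transformation, so these coefficients are a description only.

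The genes outside the 10 whose values ran most like each member, among those with a mean of at least 7, were chosen by the highest Pearson r over the 21 libraries. For SQSTM1 they were SMOX (0.98), which encodes spermine oxidase, KCNG1 and TALDO1, an enzyme of the pentose phosphate pathway. For MAP1LC3B they were VEGFA (0.981), the vascular growth factor gene, OSMR and XPOT. For DRAM1 they were TNFSF4 (0.937), the p53 target and DNA damage recognition gene XPC (0.915), and PLXNB2. For TP53INP2 they were APLP2 (0.935), SERPINB2 and ITGB1, and for WIPI1 SP110 (0.978), APP and ABI3BP. GABARAPL1 ran with C1orf43 (0.965), EEF1A1 and RIOK3, ULK1 with KCNG1 (0.951), NDRG1 and SMOX, and NBR1 with ZCCHC6 (0.979), PDE4DIP and SLC35E2B. ATG2A ran with SLX4 (0.945), TUBGCP6 and HTT, and TFEB with ITGA2 (0.938), RHBDD1 and SERPINE2. SQSTM1 and ULK1 shared SMOX and KCNG1 among their closest genes.

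The rest of the pathway was followed with 159 further genes in 13 lists by role, all of them found and tested. These lists too were chosen with earlier results of these data known. In H2O2, 58 of the 159 were higher and 22 lower at 4 h, and 54 and 30 at 8 h. In NCS, 15 were higher and 15 lower at 4 h, and 28 and 13 at 8 h. Among the 145 of them with a mean of at least 7, 36.6% were higher and 14.5% lower in H2O2 at 4 h, where 21.6% and 35.4% of all genes with such means were. At 8 h in H2O2 the shares were 35.9% and 19.3%, against 26.8% and 32.5%. In NCS they were 10.3% and 9.66% at 4 h, against 12.6% and 17.6%, and 19.3% and 8.97% at 8 h, against 17.3% and 23.8%. By 24 h the pathway stood mostly higher in both stresses, with 95 higher and 11 lower in H2O2 and 96 higher and 10 lower in NCS. The medians were 0.13 and 0.15 on the log2 scale, so the changes were small.

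Of the same 145 genes, 64.1% were higher and 6.9% lower at 24 h in H2O2, and 64.8% and 6.21% in NCS. Of all genes with such means, 30.3% were higher and 34% lower in H2O2, and 31.1% and 31.8% in NCS. Between the stresses at 24 h, 27 of the 159 were higher in H2O2 and 30 lower, with a median of 0.01. Of the 145, these were 18.6% and 20.7%, near the 18.3% and 18.8% of all genes with such means.

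The proton pump of the lysosome, the V-ATPase, had 14 of 16 other genes higher in H2O2 and 12 of 16 in NCS at 24 h, with none lower. ATP6V0A1, a membrane subunit, rose by 0.39 and 0.38. Of 41 lysosomal hydrolases and cofactors, 24 were higher and 5 lower in H2O2, and 30 and 4 in NCS. FUCA1, the lysosomal fucosidase, had the largest rises of this list, 1.00 in H2O2 and 1.05 in NCS. The protease gene CTSC went the other way and fell by 0.66 in H2O2 at 24 h, and it was below NCS by -0.43. ARSB and LIPA, a sulfatase and the acid lipase, were below NCS by -0.44 and -0.31 at 24 h.

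Of 15 lysosomal membrane proteins, 8 were higher and 0 lower at 24 h in each stress, with CTNS, the cystine exporter, at 0.25 in H2O2 and the channel gene TPCN1 at 0.36 in NCS. Of 15 nutrient-sensing genes of the lysosome surface, 10 were higher and 0 lower in H2O2, and 8 and 1 in NCS. FLCN, a regulator of Rag GTPases, rose by 0.52 and 0.31, and RRAGC, one of those GTPases, by 0.41 and 0.21. At 4 h this list held opposite changes in H2O2, where FNIP1, a partner of folliculin, rose by 0.37 and MTOR, the kinase that restrains autophagy, fell by 0.37. FNIP1 fell by 0.20 in NCS at 4 h, a difference between the stresses of 0.58.

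Of 11 p53-linked autophagy genes, 9 were higher in H2O2 and 7 in NCS at 24 h with 0 lower. They held the largest changes of the 13 lists at 4 h. The stress-response gene SESN2 rose by 1.87 in H2O2 and 1.10 in NCS at 4 h, and the mTORC1 inhibitor DDIT4 by 1.21 in H2O2, where it exceeded NCS by 1.45. SESN1, a sestrin gene like SESN2, rose by 1.20 in NCS at 4 h, and H2O2 was below NCS by -0.50. The direction between the stresses at 4 h for SESN1 was thus that of DRAM1, and for SESN2 and DDIT4 that of SQSTM1, MAP1LC3B, GABARAPL1 and ULK1.

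Of the 4 other initiation genes, 3 were higher in H2O2 and 2 in NCS at 24 h, with the ATG101 gene (listed as C12orf44) up by 0.50 in H2O2 at 4 h. Of 8 genes of the class III PI3-kinase complex, which makes the lipid that WIPI1 binds, 5 were lower and 1 higher in H2O2 at 4 h, among them PIK3R4 by -0.40 and ATG14 by -0.27, where 35.4% of all genes with a mean of at least 7 were lower and 21.6% higher. Of the 8 other genes of the list with ATG9, lipid transfer and WIPI genes, 4 were higher and 1 lower in H2O2 at 4 h. The 1 lower was ATG2B, the relative of ATG2A, which fell by 0.34. Among relatives of WIPI1, WDR45 rose at 24 h by 0.61 in H2O2 and 0.44 in NCS, and WIPI2 by 0.20 and 0.21. The WDR45B gene (listed as WDR45L) rose by 0.21 in H2O2 at 4 h, as WDR45 did by 0.18. It went the other way from both in NCS at 24 h, down by 0.17. Of the other 10 conjugation genes, 2 were higher and 2 lower in H2O2 and 3 and 1 in NCS at 24 h, and ATG4A, a protease of ATG8 proteins, was -0.14 in H2O2 and 0.21 in NCS, both passing. In the ATG8 family MAP1LC3A rose by 0.42 in NCS at 24 h, as MAP1LC3B did by 0.43. For MAP1LC3A H2O2 was then below NCS by -0.34, while for MAP1LC3B it was above NCS by 0.29. The MAP1LC3A mean was 9.10 in untreated cells and 9.19 in H2O2 at 24 h. Of the 5 other genes of the family, 3 were lower in H2O2 than in NCS at 24 h and 0 higher.

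Of 13 other cargo receptor genes, 6 were higher in H2O2 at 24 h, and 7 higher and 1 lower in NCS. OPTN, the receptor optineurin, rose by 0.33 in NCS at 24 h, and H2O2 was below NCS by -0.23. Its mean was 12.57 in untreated cells and 12.67 in H2O2 at 24 h. CALCOCO2, which encodes NDP52, rose by 0.24 in H2O2. Of 10 fusion genes, 7 were higher and 0 lower in each stress at 24 h, PLEKHM1 by 0.36 and 0.32 and VPS39 by 0.33 and 0.28. At 4 h in H2O2 the fusion list was split, with 4 higher and 4 lower, among them RAB7A at 0.29 and STX17 at -0.27.

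**Figure D4:**
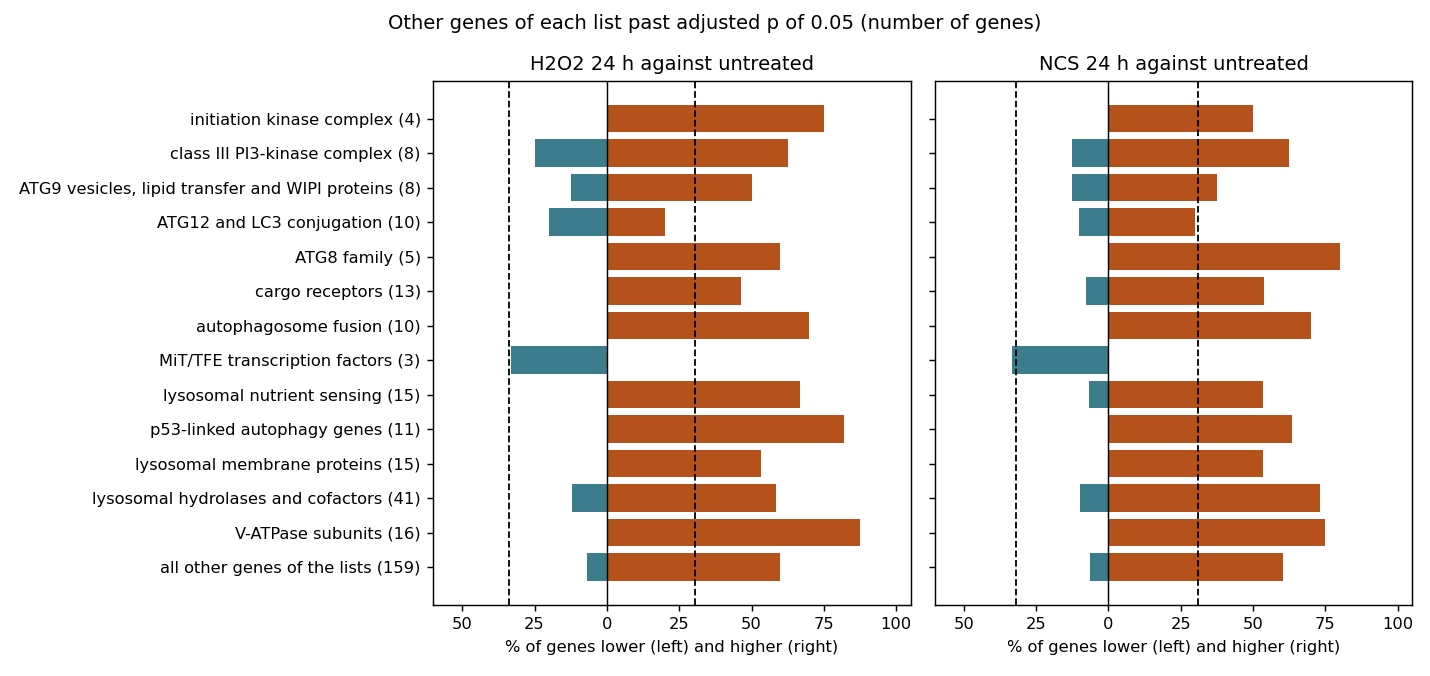
Share of the other genes of each list, in percent, that were higher (right) or lower (left) than in untreated cells at 24 h at an adjusted p under 0.05, with the number of genes in brackets; dashed lines mark the shares among all 10026 genes with a mean of at least 7. V-ATPase subunits reached 87.5% higher in H2O2 and 75% in NCS, and the MiT/TFE list had none higher.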

How the data were processed

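In Galaxy, the authors ran HISAT2 at default settings, then htseq-count, then the rLog transformation of DESeq2, and the submitters' notes name build hg19. The annotation, the tool versions and the handling of reads shared by gene copies are not given in the sources used here. The deposited values are thus log2 values made by the authors, used here without further normalization. rLog shrinks differences, most strongly for weakly expressed genes, so changes are understated.

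Of 23368 genes, 3674 were at 0 in every library and 19694 were tested (R 4.3.3, limma 3.58.1). One model held the 7 groups, allowed for a mean-variance trend and gave 12 contrasts. Of these, 6 set a treated group against untreated cells, 3 set H2O2 against NCS, 2 set 24 h against 4 h, and 1 was the interaction of stress and time. The fit was tested on simulated data. For single genes a two-sided exact permutation test was also run. The replicate numbers of the labels did not pair the libraries. The members and gene lists were chosen with earlier results of these data known. Besides the members, genes are named if among the 3 largest passing changes without overlap of libraries in a list and comparison, or among the 3 most alike by Pearson r. Relatives of members (TFE3, TFEC) named as not passing were added after their values were seen. RefSeq promoters and figures were handled in Python 3.11.15. Alternatives were aligned medians, quantile normalization, a mean of at least 5, limits of 0.58 and 1, only the groups compared, no trend, a replicate block, and each library left out. The other measurements of the study were not analysed here.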

Additional observations from a re-analysis of the deposited data

Results flagged for a closer look

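For 7 of the 10 genes the change from 4 to 24 h differed between the stresses by the interaction term of the limma fit, and the sign of each value is H2O2 minus NCS. TP53INP2 had the largest, -0.83 (adjusted p = 1.89e-12), from a change of -0.42 in H2O2 and 0.41 in NCS. ATG2A had 0.47 (adjusted p = 2.62e-07), from 0.38 in H2O2 and -0.09 in NCS. This NCS change missed the limit with library medians aligned (adjusted p = 0.147) and under quantile normalization (0.253). It also missed without NCS 4 h replicate 1 or 2 or NCS 24 h replicate 2 or 3 (adjusted p from 0.0593 to 0.146). DRAM1 had 0.38 (adjusted p = 0.000106), from 0.27 and -0.11, of which the NCS change did not pass (adjusted p = 0.0557). SQSTM1 had 0.30 (adjusted p = 0.000232), from 0.43 and 0.13.

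The other 3 changed more in NCS. GABARAPL1 had -0.32 (adjusted p = 0.00257), from 0.14 in H2O2 and 0.46 in NCS. Its H2O2 change missed the limit without H2O2 4 h replicate 2 or 3 or H2O2 24 h replicate 3 (adjusted p from 0.0806 to 0.169). MAP1LC3B had -0.31 (adjusted p = 0.000644), from 0.12 and 0.43. Here the H2O2 change missed the limit without H2O2 4 h replicate 1 or 3 or H2O2 24 h replicate 2 or 3 (adjusted p from 0.0527 to 0.0932). WIPI1 had -0.22 (adjusted p = 0.000463), from 0.37 and 0.58. Of all genes tested, 39.4% passed this interaction, and 51.1% of those with a mean of at least 7.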

How the results depend on the processing

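No member's difference changed sign while past the limit under any alternative. Limits on size removed most calls. With an absolute log2 difference over 0.58 as well, the members passing were 1, 3 and 4 in H2O2 at 4, 8 and 24 h, 0, 0 and 1 in NCS, 1, 2 and 1 between H2O2 and NCS, 0 in H2O2 and 1 in NCS from 4 to 24 h, and 1 for the interaction. With a limit of 1 each of the 12 counts was 0, as the largest difference of a member was 0.87, for SQSTM1 in H2O2 at 24 h. A stricter limit can only keep or lower a count. With library medians aligned, the NCS count at 8 h was 4 in place of 7, and the cause was not tested. Leaving out each library in turn gave 3 to 4 members in NCS at 4 h (5 with all libraries) and 3 to 5 in NCS at 8 h (7 with all libraries). Of 780 such single-gene results, 733 kept their side of the limit, 44 lost it and 3 gained it. The other 10 counts stayed within 1.5 times under the alternatives other than the limits on size.

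The replicate numbers did not pair the libraries, with a mean correlation of deviations of 0.0274 over 63 same-numbered pairs (from -0.149 to 0.213). A fit with the numbers as a replicate block gave 6 members in NCS at 8 h, where WIPI1 missed the limit (adjusted p = 0.057), and 9 in NCS from 4 to 24 h, where DRAM1 passed (adjusted p = 0.041). The other counts were 8, 10 and 9 in H2O2, 5 and 9 in NCS at 4 and 24 h, 8, 9 and 6 between the stresses, 9 in H2O2 from 4 to 24 h and 7 for the interaction, with the same members. The depth behind the values is unknown, so no counting interval was given.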
